A study of Mus musculus with 6 samples.

Results

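The genes described here encode the coats that carry newly made proteins between the endoplasmic reticulum (ER) and the Golgi, their cargo receptors and tethers, and the CREB3 family of transcription factors. They were chosen by name, 40 genes in all, and each of the 40 had at least 1 probe set that the array annotation assigns to a single gene. They stand among 18194 genes measured in the same way. The study followed cumulus cells, the follicle cells closest to the oocyte, in wild-type mice. Females were 21 days old when given 5 IU of equine chorionic gonadotropin (eCG) for 46 h, which makes follicles grow, and 23 days old by the sample labels. Cells were then taken without human chorionic gonadotropin (hCG), in the group named hCG-0h, or after 6 h under 5 IU of hCG, the hormone that mimics the ovulatory surge, in the group named hCG-6h. There were 3 samples in each group, each taken from 50 cumulus-oocyte complexes and hybridised to 1 array. The growth protocol speaks of cumulus cells and the extraction protocol of whole complexes. The isolation medium of both groups held 5 µM milrinone, a PDE3 inhibitor that keeps the oocyte immature. The descriptions of hCG-6h samples 2 and 3 speak of 7 h and 8 h, against 6 h in their titles. Whether samples of a group came from different animals is not in the labels, and p-values measure only the spread between these samples, which may be technical. The time without hCG was not matched, so hCG and the longer time cannot be told apart.

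Proteins bound for secretion leave the ER in vesicles coated by COPII. The GTPase SAR1, switched on by PREB, recruits the inner coat of SEC23 and SEC24, which picks cargo, and then the outer coat of SEC13 and SEC31, at exit sites organised by SEC16. COPI vesicles, formed with ARF GTPases, carry escaped ER proteins and cargo receptors back. CREB3 factors are made as ER membrane proteins, are cut in the Golgi by the site-1 and site-2 proteases, and then enter the nucleus. In other secretory tissues such as bone, CREB3L1 and CREB3L2 are known to raise genes of collagen secretion and of the COPII coat. Cumulus cells secrete a large extracellular matrix during expansion, and the comparison asked here is whether the transport genes moved with Creb3l1.

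Values are log2 expression values, and a difference of 1 on that scale is 2-fold. A gene is said to have risen or fallen where limma's adjusted p (Benjamini-Hochberg, over all 18194 genes, two-sided) was under 0.05. Levels of different genes come from different probes and are not compared with each other. The 6 arrays had medians of 6.43 to 6.46. Within groups, Pearson's r across probe sets, which are not independent replicates, was 0.9819 to 0.985, against 0.9434 to 0.9456 between groups. The cumulus marker Inha stood at 13.41 to 13.49 at hCG-0h and at 13.36 to 13.42 at hCG-6h, and 0 of 10 oocyte markers passed (2 at an unadjusted p under 0.05). The list of 10 cumulus and granulosa markers averaged 11.37 to 11.41 at hCG-0h and 9.76 to 9.97 at hCG-6h, where 6 of its genes fell and none rose. Of the oocyte markers 6 were dim in every sample. The mean log2 value of their list was 5.19 to 5.44 at hCG-0h and slightly higher, 5.45 to 5.47, at hCG-6h. Dppa3 and Gdf9 changed by 0.96 and 0.46 and Zar1 by -0.49, and none of them passed (limma adjusted p = 0.0851, 0.123 and 0.369). In all, 6 of the 10 had a positive change. Lists of 5 endothelial and 6 leukocyte markers had higher means at hCG-6h, of 4.87 to 5.24 against 5.41 to 5.70 and of 5.6 to 5.85 against 5.89 to 6.03. Of these genes Cd52, a leukocyte marker, rose by 1.00 (limma adjusted p = 0.00658), and the endothelial marker Cdh5, at 5.74 to 7.52 and then 7.73 to 8.63, had a change of 1.63 that did not pass (0.053). The 2 theca and 2 red blood cell markers measured had lower means at hCG-6h (7.38 to 7.52 against 7.73 to 8.04, and 5.68 to 5.79 against 6.22 to 6.32). In each pair 1 gene fell, Ptch1 by 0.92 and Alas2 by 1.35 (limma adjusted p = 0.00293 and 0.00125), while Cyp17a1 and Hba-a1 did not pass (changes of 0.00 and 0.25). The means of 5 stromal markers overlapped (5.28 to 5.82 against 5.52 to 5.70). The part of such cells in the results below was not tested, and in bulk samples fewer cells of a type and less RNA per cell cannot be told apart.

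Creb3l1 rose steeply, while 28 of 35 transport genes did not pass. Of the 40 genes, 6 rose and 2 fell, that is 15.0% and 5.0%, where 10.8% of all genes rose and 10.5% fell, and 21.3% of all genes passed in either direction. The 3 values of one group lay wholly above those of the other in 11 members at hCG-6h and in 3 members at hCG-0h, or 27.5% and 7.5% (all genes 19.3% and 18.7%, in either direction 37.9%). The total share called, 8 of 40, was near that of all genes. Among the 35 transport genes 5 rose, 2 fell and 28 did not pass, with a median log2 change of 0.08 against 0.01 over all genes. The typical size of change was small, with a median absolute log2 change of 0.11 in the transport genes and 0.23 over all genes. These sets were not matched for brightness, and the part of brightness in that difference was not tested. For each of the 28 that did not pass, the 95% interval of the change lay within 1 log2 unit of 0, and for 22 of them within 0.5. One of them, Sec16b, lay near the floor of the arrays, where changes are compressed, and its interval sets no limit on its change. With 1 sample left out at a time 3 to 5 of the 40 members rose and 0 to 2 fell, with 3 rising without hCG-6h sample 1 and none falling when hCG-0h sample 2, or hCG-6h 1 or 3, was the one omitted. With hCG-0h sample 1 or 3 omitted, 1 member fell. With sample 1 as the lone hCG-6h sample, the one whose description also says 6 h, 2 members rose (Creb3l1 and Sec23b) and 1 fell (Tmed10).

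**Figure D1:**
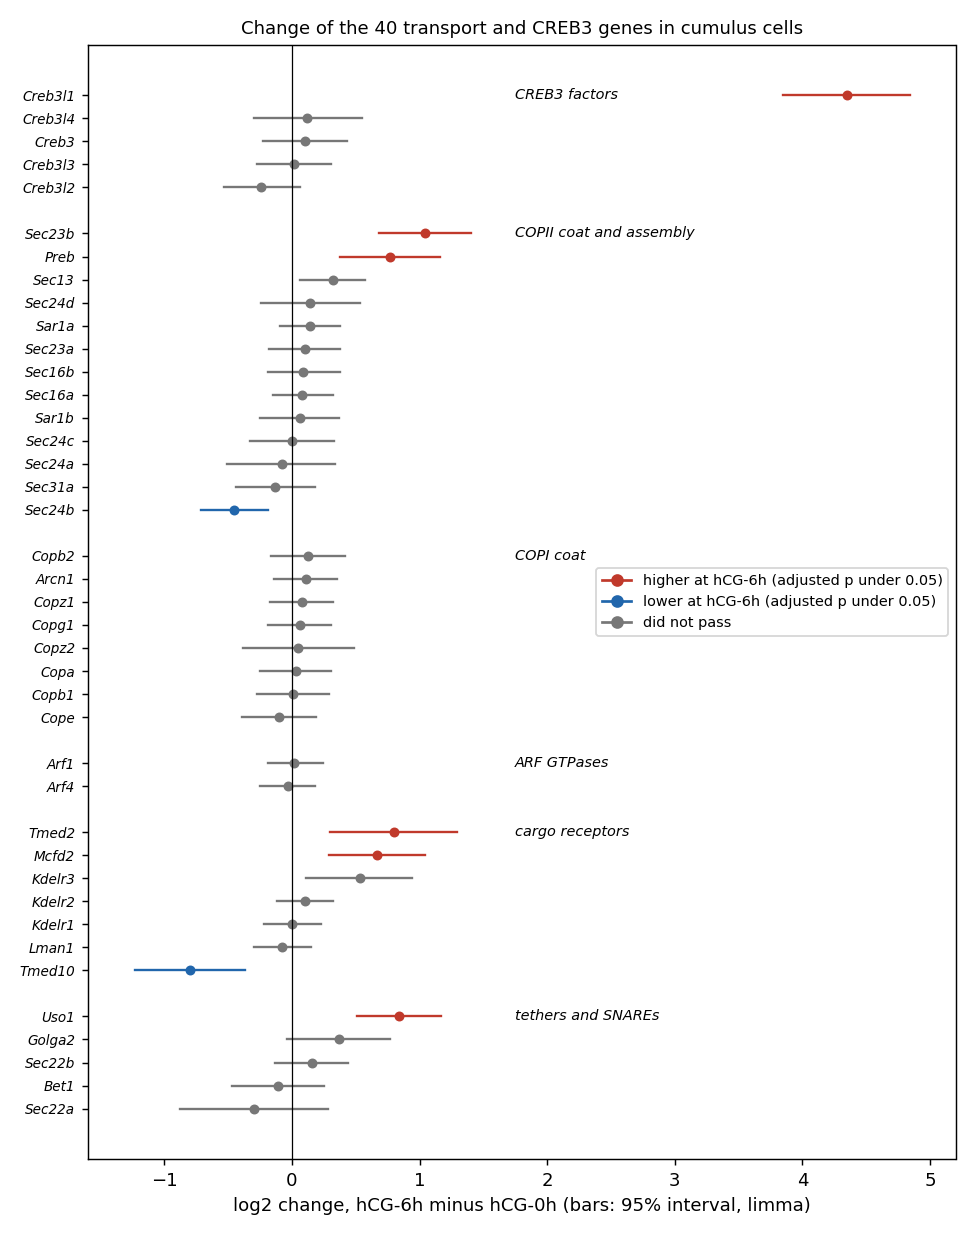
Log2 change (hCG-6h minus hCG-0h, horizontal axis) of each of the 40 genes, grouped by role, with points for the estimate and bars for limma's 95% interval. Creb3l1 stands at 4.35, the highest transport gene by its brightest probe set is Sec23b at 1.04, and the COPI coat subunits lie between -0.10 and 0.13.

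Creb3l1, measured by 1 probe set, was the CREB3 factor that rose. Its values were 5.88, 6.67 and 6.05 in hCG-0h samples 1, 2 and 3 and 10.48, 10.51 and 10.65 in hCG-6h samples 1, 2 and 3. Every hCG-6h sample lay far above every hCG-0h sample, and the spread was wider before hCG than after it. The log2 change was 4.35 ± 0.21 (SE), or 20.3-fold, with a limma adjusted p of 4.93e-05, and it ranked 43 among all genes by the size of its rise. At hCG-0h samples 1 and 3 lay under a mean level of 6.08, below which lie the dimmest 1 in 3 genes. The background step of the array processing compresses differences there, and the fold is approximate. Leaving out any single sample gave log2 changes between 4.19 and 4.58, all past the threshold.

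The other 4 family members did not pass. Creb3l2, the closest relative of Creb3l1 in the family, had 12.13, 12.36 and 12.15 at hCG-0h and 12.06, 11.81 and 12.06 at hCG-6h. Its hCG-6h samples all lay below its hCG-0h samples, by a log2 change of -0.24 (95% interval -0.53 to 0.06, limma adjusted p = 0.243). A dimmer probe set of Creb3l2 fell by 0.41 (limma adjusted p = 0.0359 over all probe sets), and the mean of both probe sets also passed, at -0.32 (adjusted p = 0.0481). Creb3, the founding member, stood at 11.28 ± 0.16 and 11.38 ± 0.17 (SD, n = 3 each), with groups that overlapped. Creb3l3, known from liver and gut, had a log2 change of 0.02 (95% interval -0.27 to 0.31). Creb3l4 was dim in every sample, from 4.77 to 5.30 at hCG-0h and from 4.87 to 5.23 at hCG-6h. Between Creb3l1 and Creb3l2 the within-sample difference moved from -6.01 ± 0.29 to -1.43 ± 0.14 (SD, n = 3 each), 4.58 apart. With 3 samples against 3 the exact two-sided permutation test could not go below p = 0.1, which it reached here and in the other pairs compared below (3 pairs, adjusted p = 0.1 each). For Creb3l1 and Creb3l2, separate groups in opposite directions fix that p in advance, so it adds nothing to the changes given above.

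Of the proteases and ER stress factors listed beside the family, 2 of 11 rose and 2 fell (18.2% each). The shares of all genes were 10.8% and 10.5%. The median log2 change of the list was -0.03. Both proteases that release CREB3 factors fell slightly. Mbtps1, the site-1 protease, went from 10.38 ± 0.14 to 9.91 ± 0.15 and Mbtps2, the site-2 protease, from 8.40 ± 0.18 to 7.84 ± 0.21 (SD, n = 3 each). Their log2 changes were -0.47 and -0.56 (limma adjusted p = 0.0393 and 0.0407). Those calls were fragile. Mbtps1 missed the threshold whichever of the 6 samples was omitted (adjusted p 0.0562 to 0.114). Mbtps2 missed it when hCG-0h sample 2 or 3, or hCG-6h 1 or 2, was omitted (0.106 to 0.118), and with a trend and robust variance (0.0676). Ern1, the ER stress sensor IRE1, rose by 0.70 on the log2 scale and Insig1, which holds the SREBP escort in the ER, by 0.34 (limma adjusted p = 0.0231 and 0.0409). Insig1 lost its call whichever sample was omitted (0.0774 to 0.113). Ern1 lost it when hCG-0h sample 1 or 2, or hCG-6h 2 or 3, was omitted (0.0576 to 0.0682) and as a mean of probe sets (0.0545). Over such omissions 0 to 1 gene of the list rose and 0 to 1 fell.

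Within the COPII machinery, 2 of 13 genes rose and 1 fell (15.4% and 7.69%, against 10.8% and 10.5% of all genes). Sec23b, an inner coat subunit and activator of the SAR1 GTPase, had 9.52, 9.19 and 9.11 at hCG-0h and 10.50, 10.25 and 10.19 at hCG-6h. The groups did not overlap, and the gap between them was wider than the range within either. Its log2 change was 1.04 ± 0.15 (SE), or 2.06-fold (limma adjusted p = 0.00369). The rise stayed past the threshold in each setting tried, between 0.95 and 1.23, and was the largest among the 35 transport genes by the brightest probe set of each (a dimmer probe set of Preb, given below, rose more). Sec23b was measured by 1 probe set, so the mean of probe sets only repeats its values. The paralogue Sec23a, which serves the same step, overlapped between the groups, with 10.68, 10.91 and 10.95 against 11.04, 10.89 and 10.91. Its log2 change was 0.10 (95% interval -0.18 to 0.38). The difference Sec23b minus Sec23a went from -1.57 ± 0.36 to -0.63 ± 0.09 (SD, n = 3 each), a shift of 0.94 (exact permutation p = 0.1, the smallest possible).

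Preb, which loads SAR1 with GTP and so starts coat assembly, rose as well. Samples stood at 11.68, 11.10 and 11.39 before and at 12.21, 12.23 and 12.04 after hCG. All hCG-6h values were above the highest hCG-0h value, and hCG-0h samples were the more scattered. The log2 change was 0.77 ± 0.16 (SE, limma adjusted p = 0.0173). A dimmer probe set of Preb rose by 1.86 (limma adjusted p = 0.00091 over all probe sets), and another changed by 0.39 (0.052). With hCG-0h sample 3, or hCG-6h 1 or 2, omitted the call was just lost, at adjusted p of 0.0533, 0.0565 and 0.0564, with log2 changes of 0.77, 0.74 and 0.74. The subunit that fell was Sec24b, a cargo-binding isoform of the inner coat, from 10.63, 10.72 and 10.53 to 10.14, 10.30 and 10.09. Its groups were separate, with a log2 change of -0.45 ± 0.11 (SE, limma adjusted p = 0.0287). A dimmer probe set changed by -0.29 and did not pass. The call ended when hCG-0h sample 1 or 2, or hCG-6h 1 or 3, was omitted (adjusted p = 0.0652, 0.0917, 0.0854 and 0.0913).

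The remaining 10 COPII genes did not pass. Sec24a, Sec24c and Sec24d, the other cargo-binding isoforms, had log2 changes of -0.08, 0.00 and 0.14, each with overlapping groups. The GTPase genes Sar1a and Sar1b changed by 0.14 (95% interval -0.09 to 0.38) and 0.06 (-0.25 to 0.37). Sec31a, the rod of the outer cage, changed by -0.13. Its partner Sec13, also a nuclear pore subunit, stood at 11.31, 11.36 and 11.49 against 11.79, 11.59 and 11.73. All hCG-6h values of Sec13 were higher, but the change of 0.32 (95% interval 0.06 to 0.57) did not pass (limma adjusted p = 0.0868), except with a trend and robust variance (adjusted p = 0.0192). Sec16a, the main organiser of exit sites, changed by 0.08. Sec16b lay near the floor of the arrays, between 3.58 and 3.94 in all 6 samples, and its change cannot be read.

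Promoter sequences were searched for the letters ACGTG and TGACG, cores that CREB3 and related factors are known to bind, on both strands. A window runs from 250 bases before to 50 bases after a RefSeq start (build GRCm38.p6). The windows of both COPII genes that rose are shown here with every match in capitals, so that the absence of the fuller motif discussed below can be seen. Each held 2 matches of TGACG, 1 of them on the opposite strand in Preb, and none of ACGTG. A second start of Sec23b held neither.

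Sec23b, chr2:144555979-144556278, plus strand: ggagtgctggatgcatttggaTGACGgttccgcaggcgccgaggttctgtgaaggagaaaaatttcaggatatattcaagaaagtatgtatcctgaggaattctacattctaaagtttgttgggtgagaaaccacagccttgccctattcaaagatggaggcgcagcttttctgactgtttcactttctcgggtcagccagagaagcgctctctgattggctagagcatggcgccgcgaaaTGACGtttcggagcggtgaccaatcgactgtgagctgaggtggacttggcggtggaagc
Preb, chr5:30960278-30960577, minus strand: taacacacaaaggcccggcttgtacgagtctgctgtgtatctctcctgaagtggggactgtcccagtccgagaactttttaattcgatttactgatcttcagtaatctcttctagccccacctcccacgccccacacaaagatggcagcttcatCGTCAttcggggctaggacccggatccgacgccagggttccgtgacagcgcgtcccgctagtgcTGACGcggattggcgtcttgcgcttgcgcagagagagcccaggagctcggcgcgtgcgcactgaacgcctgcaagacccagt

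No subunit of the COPI coat passed, where 21.3% of all genes did. The 8 genes were Copa, Copb1, Copb2, Cope, Copg1, Copz1, Copz2 and Arcn1. By the brightest probe set of each, all had overlapping groups, where 37.9% of all genes did not overlap. Their log2 changes lay between -0.10 for Cope and 0.13 for Copb2. None reached an unadjusted p under 0.05 (0 of 8, limma), against 5990 of all 18194 genes. In so small a group such counts alone say little. In all 8 the 95% interval lay within 0.5 of 0. Copb1, the beta subunit, stood at 10.71, 10.62 and 10.74 before and 10.63, 10.58 and 10.89 after hCG. Copa, the alpha subunit, had 11.48, 11.81 and 11.71 against 11.74, 11.67 and 11.67. Arcn1, the delta subunit, stood at 11.03 ± 0.07 and 11.14 ± 0.09 (SD, n = 3 each). By those values the range within a group was wider than the shift between groups in these 3 subunits. A dimmer probe set of Arcn1 had separate groups, higher at hCG-6h. Its change of 0.23 did not pass (limma adjusted p = 0.262 over all probe sets). The coat's GTPases did not pass either. Arf1, which recruits the coat, had 12.60, 12.60 and 12.63 at hCG-0h and 12.67, 12.61 and 12.62 at hCG-6h, a log2 change of 0.02 (95% interval -0.19 to 0.24). Of its dimmer probe sets 1 changed by 0.01 and 1 by -0.50, and neither passed (limma adjusted p = 0.974 and 0.175 over all probe sets). The mean of all 3 Arf1 probe sets changed by -0.16 and did not pass (adjusted p = 0.375). Arf4, which acts beside ARF1 and is known to rise under Golgi stress through CREB3, had a log2 change of -0.03 (-0.25 to 0.18). In the further list of COPI and ARF regulators 1 of 10 rose and 1 fell, with a median log2 change of 0.21. The gene that rose was Arfgef2, an exchange factor for ARF, from 7.44 ± 0.29 to 8.40 ± 0.50, and the one that fell was Arf2, from 9.67 ± 0.34 to 8.95 ± 0.09 (SD, n = 3 each; limma adjusted p = 0.0485 and 0.0314). Arfgef2 kept its call without hCG-6h sample 3 and lost it when any other sample was omitted (0.0529 to 0.136) and with array weights (0.061). Over such omissions 0 to 1 gene of the list rose and 0 to 2 fell, with 2 falling without hCG-0h sample 1. Arf2 lost its call when hCG-0h sample 2 or any hCG-6h sample was omitted (0.0649 to 0.0922), and the mean of its 4 probe sets changed by only -0.25 (adjusted p = 0.276).

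**Figure D2:**
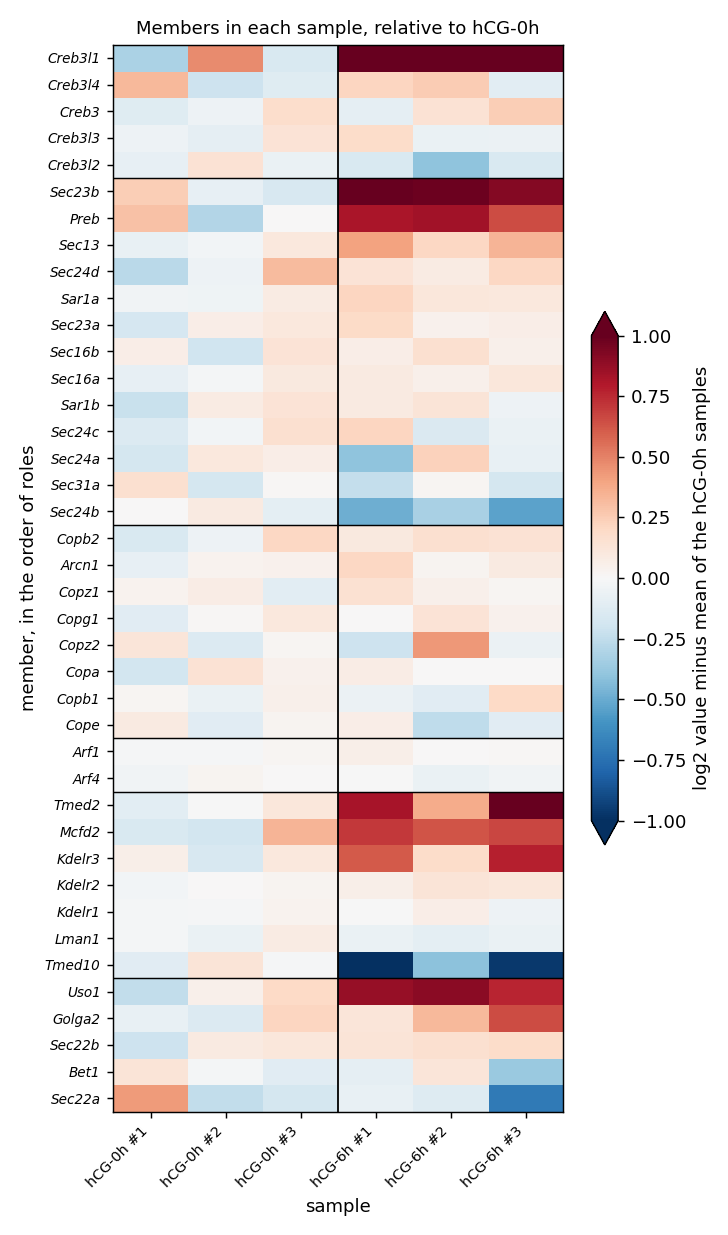
Each of the 40 genes (rows, ordered by role, with lines between roles) in each of the 6 samples (columns), as the log2 value minus the mean of the 3 hCG-0h samples, with the colour scale ending at -1 and 1. Creb3l1, Sec23b, Preb, Mcfd2 and Uso1 are high in every hCG-6h sample, whereas the COPI rows stay pale apart from Copz2 in hCG-6h sample 2.

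Among the cargo receptors, 2 of 7 genes rose and 1 fell (28.6% and 14.3%, against 10.8% and 10.5% of all genes). Mcfd2, which with LMAN1 carries clotting factors and other glycoproteins out of the ER, had 9.47, 9.44 and 9.96 before and 10.33, 10.25 and 10.29 after hCG. The hCG-6h values were tight and all higher, while hCG-0h sample 3 stood above the other two of its group. The log2 change was 0.67 ± 0.16 (SE, limma adjusted p = 0.0262). It kept its call without hCG-0h sample 3 and lost it without any other sample (adjusted p 0.0642 to 0.0804). Lman1, its partner, did not pass, with a change of -0.08 (95% interval -0.30 to 0.15) and overlapping groups by its brightest probe set. Among its dimmer probe sets, changes of -0.19 came with separate groups, lower at hCG-6h (limma adjusted p = 0.273 and 0.289 over all probe sets). Others changed by -0.12 and 0.25, and none passed. The window of Mcfd2 held 3 matches of ACGTG, counted on both strands, where the 6 letters CACGTG hold a match on each, and none of TGACG.

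Mcfd2, chr17:87265898-87266197, minus strand: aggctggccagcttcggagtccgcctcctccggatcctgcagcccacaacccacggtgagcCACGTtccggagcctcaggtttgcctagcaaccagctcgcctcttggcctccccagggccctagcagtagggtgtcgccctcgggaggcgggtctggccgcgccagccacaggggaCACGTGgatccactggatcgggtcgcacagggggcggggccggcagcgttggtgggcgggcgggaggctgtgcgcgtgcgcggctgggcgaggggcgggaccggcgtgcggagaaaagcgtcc

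The p24 proteins Tmed2 and Tmed10, which form a complex that sorts lipid-anchored cargo and binds both coats, changed in opposite directions. Tmed2 stood at 6.47, 6.57 and 6.69 at hCG-0h and at 7.40, 6.95 and 7.77 at hCG-6h. Tmed10 stood at 9.51, 9.75 and 9.61 and then at 8.60, 9.21 and 8.66. In neither gene did the groups overlap, and in both hCG-6h sample 2 lay nearest to the hCG-0h values. The log2 changes were 0.80 ± 0.21 for Tmed2 and -0.80 ± 0.18 for Tmed10 (SE, limma adjusted p = 0.0371 and 0.0225). The difference Tmed2 minus Tmed10 rose by 1.6, from -3.05 ± 0.13 to -1.45 ± 0.72 (SD, n = 3 each; exact permutation p = 0.1, the smallest possible). Separate groups in opposite directions fix that p in advance, so it adds nothing to the 2 changes. Each of the pair was measured by 1 probe set. Tmed2 lost its call without any hCG-0h sample (adjusted p = 0.106, 0.0949 and 0.076) and without hCG-6h sample 1 or 3 (0.0981 and 0.0743). Tmed10 lost it without hCG-0h sample 2 or 3 (0.0725 and 0.0642) and without hCG-6h sample 1 or 3 (0.0681 and 0.0739). Among the other p24 genes 1 of 6 rose (16.7%, against 10.8% of all genes) and none fell. Their median log2 change was 0.15. Tmed5 was the one that rose, from 9.58 ± 0.18 to 10.34 ± 0.11 (SD, n = 3 each, limma adjusted p = 0.00733), and it passed with any 1 sample left out.

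The KDEL receptors return ER chaperones that escape to the Golgi. Kdelr1 overlapped between the groups, with 11.15, 11.16 and 11.21 against 11.17, 11.24 and 11.12, a log2 change of 0.00 (95% interval -0.22 to 0.23). Kdelr2 went from 12.67, 12.70 and 12.73 to 12.76, 12.83 and 12.81. Its groups did not overlap, but the change of 0.10 did not pass (limma adjusted p = 0.512). Its other, dimmer probe set had a larger change of 0.37, also with separate groups. That change did not pass either (limma adjusted p = 0.067 over all probe sets). The mean of both Kdelr2 probe sets changed by 0.23 and did not pass, so the size of the change depends on the probe set. Kdelr3, the receptor gene known as a target of ER stress factors, had 9.93, 9.71 and 9.98 before and 10.49, 10.06 and 10.65 after hCG. Its hCG-6h samples were all higher, by 0.53 (95% interval 0.11 to 0.94), and did not pass (limma adjusted p = 0.0794). It passed without hCG-6h sample 2, the lowest of its group (log2 change 0.70, adjusted p = 0.0244).

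Among 5 tether and SNARE genes 1 rose and none fell, where 10.8% of all genes rose and 10.5% fell. In so small a group a count of 1 says little by itself. Uso1, the long tether p115 that captures vesicles at the Golgi, stood at 9.23, 9.53 and 9.68 at hCG-0h and at 10.35, 10.38 and 10.24 at hCG-6h. The groups were well apart and the hCG-6h values closely spaced. The log2 change was 0.84 ± 0.14 (SE), or 1.79-fold (limma adjusted p = 0.00633), and the call held with any 1 sample left out, between 0.72 and 0.94. With sample 1 as the lone hCG-6h sample it did not pass (0.87, adjusted p = 0.101). Golga2, the golgin GM130 to which p115 binds, overlapped between the groups, with a change of 0.37 (95% interval -0.04 to 0.77). The SNARE genes Sec22b, Bet1 and Sec22a, a SEC22 relative, changed by 0.16, -0.11 and -0.30 and did not pass. A dimmer probe set of Sec22b went the other way, by -0.40, and did not pass (limma adjusted p = 0.0588 over all probe sets). The mean of both changed by -0.12, so the direction of Sec22b is open. The window of Uso1 held 4 matches of ACGTG, in places on both strands of the same letters, and none of TGACG.

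Uso1, chr5:92137688-92137987, plus strand: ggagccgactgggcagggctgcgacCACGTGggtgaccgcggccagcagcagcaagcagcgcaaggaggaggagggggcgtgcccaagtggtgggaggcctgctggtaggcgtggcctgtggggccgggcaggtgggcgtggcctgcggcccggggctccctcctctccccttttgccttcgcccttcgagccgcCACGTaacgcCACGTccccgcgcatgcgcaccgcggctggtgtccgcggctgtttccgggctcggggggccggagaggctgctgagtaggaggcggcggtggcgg

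**Figure D3:**
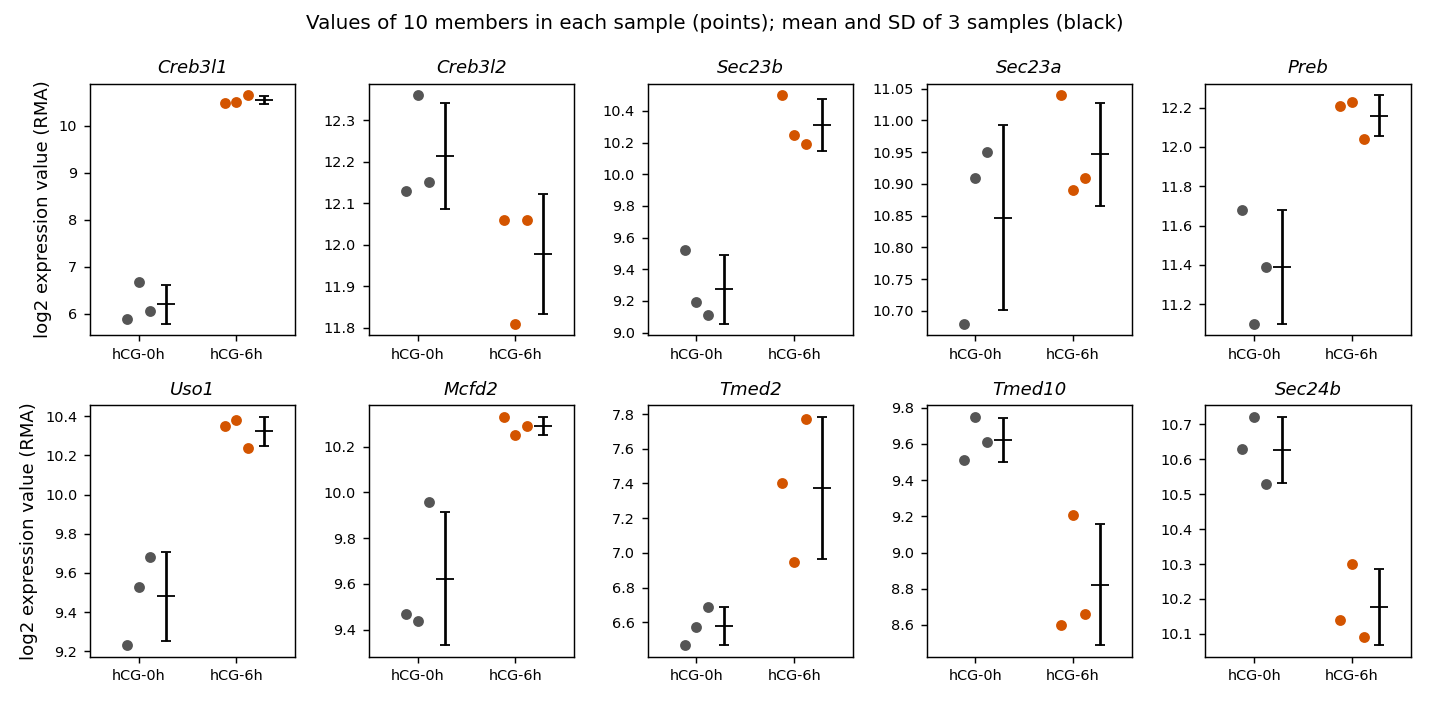
Log2 expression values of 10 members in each sample (grey points hCG-0h, orange points hCG-6h, 3 each), with black bars for the mean and SD. Each panel has its own vertical axis. The 8 genes that passed show separate groups, Sec23a overlaps, and Creb3l2 shows a small gap of separate groups that did not pass.

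Whether transport genes varied with Creb3l1 from sample to sample cannot be read from these data. The 6 samples fall into 2 clusters, the groups, with 3 samples in each, and no correlation was computed. By the brightest probe set of each gene, the 5 transport genes that rose did so by at most 2.06-fold, beside the 20.3-fold of Creb3l1.

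A fuller motif was more common in promoters of transport genes than in promoters at large. It stood in none of the changed transport genes that have a window, but these are too few for that absence to be read. The letters TGACGTGG, which join the cores TGACG and ACGTG in overlap and are known as an unfolded protein response element, stood in 8 of 35 windows of transport genes (22.9%). They stood in 0.676% of all 32851 windows and in 0.933% of the 18110 windows of genes measured here. The cores alone were also common, with ACGTG in 71.4% of the transport windows against 22.9% of the windows of measured genes, and TGACG in 54.3% against 26.5%. Transport windows were slightly richer in CG, with a median of 21 CG pairs per window against 16 in measured genes. Among windows of measured genes with at least 21 CG pairs, the shares were 29.2% for ACGTG, 37.1% for TGACG and 1.19% for TGACGTGG. The palindrome TGACGTCA stood in 1 transport window (Cope), and CCAAT followed after 9 bases by CCACG, the ER stress response element, in none. Windows were found for 35 of the 40 members and 31 of the 35 transport genes. Some genes have more than 1 window, and windows of the same gene can overlap.

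All 8 windows with TGACGTGG belonged to 7 transport genes that did not pass: Sec16b, Sec24d, Copb1, Copb2, Arf1, Sec23a and Kdelr3. Arf1 has 2 overlapping windows that share 1 site. The motif stood in no window of the 4 genes that rose and have one (Sec23b, Preb, Uso1 and Mcfd2) and in neither window of Sec24b and Tmed10. At a share of 22.9% of the transport windows, so few changed genes could all lack it without any tie to the change. Over all measured genes its share was 1.04% in windows of genes that rose, 0.992% in those that fell and 0.909% in those that did not pass. The 7 sites are shown because this motif was so much more common in the transport windows, written on the strand that reads TGACGTGG, with the motif in capitals and 10 bases on either side (RefSeq, GRCm38.p6). Counting the start base as 0, the motif's first base in the direction of the gene lay between -84 and 21. A match is a description of letters and shows no binding.

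Sec16b, chr1:157506742-157506769, plus strand: tctgtgtggcTGACGTGGcacggcagtt
Sec24d, chr3:123267460-123267487, plus strand: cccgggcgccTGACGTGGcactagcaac
Copb1, chr7:114254691-114254718, plus strand: agtccttggcTGACGTGGaagggggcgg
Copb2, chr9:98563714-98563741, minus strand: gccaacccacTGACGTGGaacttccggg
Arf1, chr11:59228229-59228256, minus strand: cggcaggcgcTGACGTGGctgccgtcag
Sec23a, chr12:59011994-59012021, minus strand: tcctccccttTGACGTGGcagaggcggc
Kdelr3, chr15:79516368-79516395, minus strand: ggccgcgcggTGACGTGGcggggcggcc

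Beside Sec23a, which carries such a site and did not pass, Sec23b has none in either of its windows, the first of which is printed above, and rose. A single pair of genes cannot show a link between site and change, and none was tested. By the brightest probe set of each, Kdelr3 had the largest change of the 7 genes with a site, the 0.53 given above. The others lay between 0.01 and 0.14, Sec16b aside, whose change cannot be read.

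Neighbouring steps of the secretory route were looked at through lists of other genes. On entry into the ER, 4 of 21 genes rose and 1 fell (19.0% and 4.76%, against 10.8% and 10.5% of all genes). The median log2 change was 0.27 against 0.01 over all genes. In 13 of 21 all hCG-6h values lay above the hCG-0h values and in 3 of 21 below them (61.9% and 14.3%, against 19.3% and 18.7% of all genes). The count of rises moved with the settings, to 11 with a trend and robust variance, 8 as a mean of probe sets and 6 without the dimmest 1 in 3 genes or with median centring. The signal peptidase subunits Spcs3 and Spcs2 rose by 0.49 and 0.40 and the translocon subunit Sec61b by 0.39, while Sec61a2, a translocon channel isoform, fell by 0.83 (limma adjusted p = 0.0138, 0.0278, 0.0362 and 0.0159). Spcs3 missed the threshold without hCG-0h sample 2 (adjusted p = 0.0508), and Sec61a2 when sample 2 of either group was omitted (0.0543 at hCG-0h and 0.0531 at hCG-6h). Spcs2 missed it whichever sample was omitted (0.0569 to 0.0863) and Sec61b unless that was hCG-0h sample 1 (0.0715 to 0.111). With 1 sample omitted 0 to 3 genes of the list rose, none where hCG-0h sample 2 was omitted, 1 for hCG-0h sample 3 and hCG-6h samples 1 and 2, and 2 for hCG-6h sample 3.

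Helpers of ER exit and other cargo receptors moved in both directions. Of 17 genes 5 rose and 3 fell (29.4% and 17.6%, against 10.8% and 10.5% of all genes), with a median log2 change of 0.01. Lman2, the lectin VIP36, rose from 10.34 ± 0.05 to 10.92 ± 0.13, and Ctage5, a partner of the collagen export receptor, from 8.41 ± 0.24 to 8.96 ± 0.10 (SD, n = 3 each; limma adjusted p = 0.0105 and 0.0363). Bcap29, an ER membrane sorting protein, fell from 8.93 ± 0.20 to 7.93 ± 0.35, and Klhl12, the ubiquitin ligase adaptor that enlarges COPII coats for procollagen, from 7.65 ± 0.28 to 6.97 ± 0.23 (limma adjusted p = 0.0139 and 0.0414). Lman2 and Bcap29 passed with any 1 sample left out. Ctage5 passed without hCG-0h sample 3 alone (otherwise 0.0617 to 0.108) and Klhl12 without hCG-0h sample 1 alone (otherwise 0.0701 to 0.111). Over such omissions 1 to 4 genes of the list rose and 1 to 2 fell. There were 4 rising and 2 falling without hCG-0h sample 1, and at most 3 rising and 1 falling without any other sample. Ctage5 also missed the threshold with a trend and robust variance (0.0524).

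Tethers and SNAREs between ER and Golgi outside the 40 held 2 genes of 36 that rose and 4 that fell. These are 5.56% and 11.1%, against 10.8% and 10.5% of all genes. The median log2 change of the list was 0.18. TRAPP subunits, parts of a tether that also activates RAB1, went apart. Trappc4 rose from 9.85 ± 0.16 to 10.78 ± 0.04, while Trappc9 fell from 10.23 ± 0.26 to 8.94 ± 0.09 and Trappc6a from 9.49 ± 0.04 to 8.45 ± 0.23 (SD, n = 3 each; limma adjusted p = 0.00199, 0.00154 and 0.00252). These 3 passed with any 1 sample left out, but the mean of all probe sets of the gene did not pass for Trappc9 (log2 change -0.30, adjusted p = 0.253) or Trappc6a (-0.28, 0.399). Cog5, a subunit of the Golgi tether COG, fell by 1.03 (limma adjusted p = 0.0281). It missed the threshold when hCG-0h sample 1 or any hCG-6h sample was omitted (0.0619 to 0.0887) and as a mean of probe sets (-0.33, 0.274). With 1 sample left out 1 gene of the list rose in every case and 2 to 4 fell, with 2 without hCG-0h sample 1 or any hCG-6h sample.

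Enzymes that modify procollagen, the bulky cargo associated with CREB3L1 in bone, were mixed. Of 13 genes 4 rose and 2 fell (30.8% and 15.4%, against 10.8% and 10.5% of all genes), with a median log2 change of 0.22. P4ha3 rose from 6.43 ± 0.28 to 7.55 ± 0.36 and P4ha2 fell from 9.17 ± 0.13 to 8.14 ± 0.43 (SD, n = 3 each; limma adjusted p = 0.0134 and 0.0179). Both encode prolyl 4-hydroxylase alpha subunits. P3h1 and P3h2, prolyl 3-hydroxylases, changed by 0.70 and -1.19 (limma adjusted p = 0.0176 and 0.0188). P4ha3 passed with any 1 sample left out, whereas P4ha2 missed when hCG-0h sample 2 or 3 was (0.0603 and 0.0538). P3h1 lost its call when sample 1 or 3 of either group was omitted (0.0552 to 0.0605), and P3h2 when hCG-0h sample 1 or 3, or hCG-6h 2 or 3, was (0.0548 to 0.065). Such omissions left 1 to 3 risen genes in the list, 1 where hCG-6h sample 1 or 3 was the one omitted and 2 where it was hCG-0h sample 1. No gene of it fell with hCG-0h sample 3 omitted, 2 with hCG-6h sample 1, and 1 with any other sample. Across the 7 lists together 19 of 114 genes rose and 13 fell, or 16.7% and 11.4%, against 10.8% and 10.5% of all genes.

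**Figure D4:**
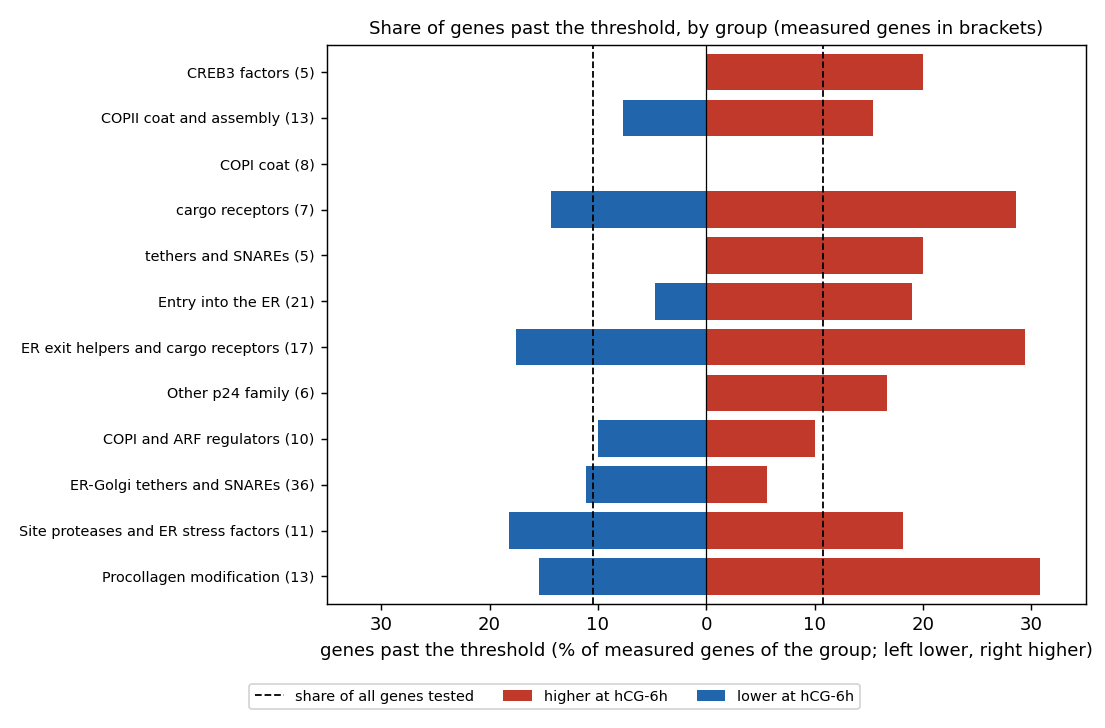
Share of measured genes past the threshold (limma adjusted p under 0.05) in each group of members and in each further list, lower genes to the left and higher genes to the right of 0, in percent. Dashed lines mark the shares of all genes, 10.5% lower and 10.8% higher. The COPI coat has none in either direction, the 2 ARF genes, of which none passed, are not drawn, and groups of 5 to 8 genes change by over 10 percentage points with a single gene.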

How the data were processed

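Cumulus cell RNA of 6 samples was amplified, biotin-labelled and hybridised to single-colour arrays, 1 per sample. The values deposited by the authors are log2 expression values of 45101 probe sets made with GCOS, Affymetrix Expression Console 1.1 and RMA, per the submitters' processing notes. RMA subtracts background, quantile-normalises and summarises probes, which compresses changes of dim genes and keeps the median change near 0.

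Probe sets with 1 gene symbol (34958) were kept, those with several (932) or none listed (9211) were not, and the probe set with the highest mean over all 6 samples stood for each of 18194 genes. The members, lists, marker lists, motifs and tests were chosen with earlier results of these data known. Of each further list the text names up to 4 genes past the threshold with the largest changes. Groups were compared with limma 3.58.1 in R 4.3.3 (lmFit, eBayes, group as the only term, no filter), two-sided. The number of arrays limits the precision.

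Simulated data of the same design had 18194 genes, of which 200 were changed. There 4% of 50 genes changed by 0.5 (log2) were recovered, 62% at 1, 86% at 2 and 96% at 4. In the data 3873 genes were called, and with more genes called the adjusted threshold is easier to reach. The simulated shares can therefore understate recovery in the data. The genome build behind the probe design was not given in the sources used here. Alternatives were the fits listed in the closing section. Promoters are those of RefSeq (GRCm38.p6), matched by symbol.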

Additional observations from a re-analysis of the deposited data

How the results depend on the processing

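Creb3l1 kept its direction and its side of the threshold in all 14 other fits, with log2 changes from 4.19 to 4.58. It was measured by 1 probe set, so the mean of probe sets only repeats its values. Of the 39 other members, 3 gained the threshold, over 4 fits, and 27 times a called member lost it, with its sign kept. With hCG-6h sample 1 alone, against 3 hCG-0h samples and assuming that the lone sample varies like the others, 1576 genes were called in place of 3873, 2 members rose (Creb3l1 and Sec23b) and 1 fell (Tmed10). With the sample number as a replicate block 7 members rose and 1 fell, since Kdelr3 passed (adjusted p = 0.0484) and Sec24b did not (0.0515), and 3264 genes were called. The block changed no other call among the 40. Same-numbered samples did not deviate together from their group means (r across genes 0.012, -0.016 and 0.029), so the numbers are not taken as a pairing. Leaving out each sample in turn gave 2919 to 3210 called genes, 3 to 5 members higher and 0 to 2 lower. Fewer samples are tested there, so the threshold is harder to reach. Quantile normalisation applied again, median centring, array weights and leaving out the dimmest 1 in 3 genes gave the same 6 and 2 members, and a trend with robust variance added Sec13. The mean of probe sets and all probe sets on their own gave 6 and 3, with Creb3l2 added to the falls by both. Counts of the further lists under these settings were added after seeing the data. With the replicate block the rises numbered 1 for entry into the ER (from 4), 1 for ER exit helpers (from 5), 2 for procollagen (from 4), 1 for proteases and ER stress factors (from 2) and 0 for COPI and ARF regulators (from 1), and the falls 1 for proteases and ER stress factors (from 2), 2 for tethers and SNAREs (from 4) and 0 for COPI and ARF regulators (from 1). With a trend and robust variance 11 genes of ER entry, 5 tethers and SNAREs (from 2) and 2 other p24 genes (from 1) rose, and 1 protease or ER stress factor fell. As a mean of probe sets 8 genes of ER entry, 2 other p24 genes and 1 protease or ER stress factor rose, while 1 tether or SNARE and 0 COPI and ARF regulators fell. Without the dimmest 1 in 3 genes 4 tethers and SNAREs and 2 COPI and ARF regulators rose, and with array weights 0 of the latter did. With hCG-6h sample 1 alone, each list had 0 or 1 rise and 0 or 1 fall. Arrays with signals near background limit Creb3l4 and Sec16b, whose changes cannot be read.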
